A study of Mus musculus with 8 samples.

Results

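The transcripts of 43 mouse genes of the autophagy and mitophagy machinery were examined in the cardiac ventricles of tumor-bearing and control mice. The members were chosen by name for their place in the pathway, from the forming autophagosome to its cargo receptors and regulators, with earlier results of these data known. All 43 were found among the 43346 genes of the deposited count table. All 43 also passed the filter on low counts and were among the 16111 genes tested. Male C57BL/6 mice received 1000000 LLC1 cells, a mouse lung carcinoma line of the same strain, or PBS vehicle at 7 weeks of age, and ventricular RNA was taken 14 days later. The injection was subcutaneous into the left flank, away from the heart, and the labels state no transgene or deletion for either group. There were 4 mice in each of the 2 groups, named here by their group and label code (LLC1 1-2, 1-3, 1-5 and 2-2; PBS 1-1, 1-3, 2-1 and 2-5), and the values below are given in that order.

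Macroautophagy encloses cytoplasm and organelles in a double membrane, the autophagosome, and delivers them to the lysosome for breakdown. The ULK kinase complex starts the process, a lipid kinase complex around Beclin 1 marks the membrane, and lipid transfer and conjugation enzymes extend it while coupling LC3 and its relatives, the Atg8 family, to its lipids. Receptors then tie cargo to these proteins, and in mitophagy the cargo is a damaged or surplus mitochondrion, a pathway on which the mitochondria-rich heart depends.

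The libraries held between 12480706 and 19747596 counts on genes, with 15342214 to 19747596 in the tumor-bearing mice and 12480706 to 16192158 in the PBS-injected mice. One control, PBS 1-1, stood apart: it lay at 35.3 on the second principal component (25.2% of the variance), where the other PBS-injected mice lay between -23.3 and -10.8, and its TMM factor was 0.935 against 1.04 to 1.05 for the other PBS-injected mice. Without it, the 10 members and the 6 further autophagy genes called below were still called, with log2 fold changes of 0.26 to 0.54 and of 0.27 to 0.59. The 8 cardiomyocyte markers (Myh6, Tnnt2 and others) made up 109000 to 117400 CPM in tumor-bearing and 99710 to 101100 CPM in PBS-injected hearts, so the defining markers of heart muscle were abundant in all 8 mice, and the sums did not overlap between groups. Of the 8, 6 were above 0 on the log2 scale and 2 (Actc1 and Ryr2) below, with a median of 0.15. Only Myh6 was called (higher, from 45870 to 54330 CPM on average, most of the difference in the sum), and Tnnt2 came near (fold 1.17, FDR = 0.0526). Myh6, Tnnt2 and Myl3 did not overlap between groups. The 6 fibroblast markers summed to 924 to 1035 CPM against 1012 to 1491 CPM (3 of 6 lower), the 6 endothelial markers to 859 to 983 CPM against 914 to 1183 CPM (1 higher, 1 lower), the 5 mural markers to 755 to 817 CPM against 867 to 1026 CPM (0 of 5 called), and the 6 macrophage markers to 118 to 133 CPM against 121 to 187 CPM (1 lower). Neutrophil markers stayed at or under 7.11 CPM in sum, with 2 of the 4 tested higher, and lymphocyte, adipocyte, atrial and skeletal muscle markers at or under 4.41 CPM in sum in every mouse. Markers of dividing cells summed to 2.11 to 4.595 CPM against 13.7 to 44.0 CPM, with 3 of the 3 tested lower, while hemoglobin and Alas2 transcripts ranged from 1428 to 5180 CPM without a call. The part of these differences in the results on autophagy genes was not tested, and in whole ventricle a change in the number of cells of a type cannot be told apart from a change in RNA per cell.

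In the hearts of tumor-bearing mice 10 of the 43 autophagy genes rose and 0 fell (edgeR quasi-likelihood test, FDR under 0.05), while over all 16111 genes tested 4.12% were called higher and 4.61% lower. The members that rose included the initiation genes Ulk1 and Atg13, the Atg8 family genes Map1lc3a, Map1lc3b and Gabarapl1, the cargo receptors Sqstm1 and Calcoco1, and the mitophagy genes Bnip3 and Pink1. Their fold changes ran from 1.20 to 1.49. The study had picked out 9 of the 43 from these same libraries, and 8 of the 9 were called, so their count and direction are not independent evidence. Of the other 34 members 2 were called, Calcoco1 and Pink1, a share near that over all genes. These 34 had a median log2 fold change of 0.08, with 23 above 0 and 11 below. In 7 of them every tumor-bearing mouse lay above every control and in 1 below, against 8.89% and 8.27% of all genes tested. For the 0 members lower, only Tfe3 had an unadjusted p under 0.05 in that direction in edgeR, and DESeq2 and limma-voom also called 0 lower. The median log2 fold change was 0.14 over the members and -0.01 over all genes tested, with 32 members above 0 and 11 below. In 15 members every tumor-bearing mouse lay above every PBS-injected mouse, against 8.89% of all genes tested, and in 1 member, Tfe3, every tumor-bearing mouse lay below, against 8.27% of all genes. Per mouse, the median member lay 0.11 to 0.15 above the PBS mean on the log2 scale in the tumor-bearing mice and between -0.01 and 0.03 in the PBS-injected mice, so that the groups did not overlap.

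**Figure D1:**
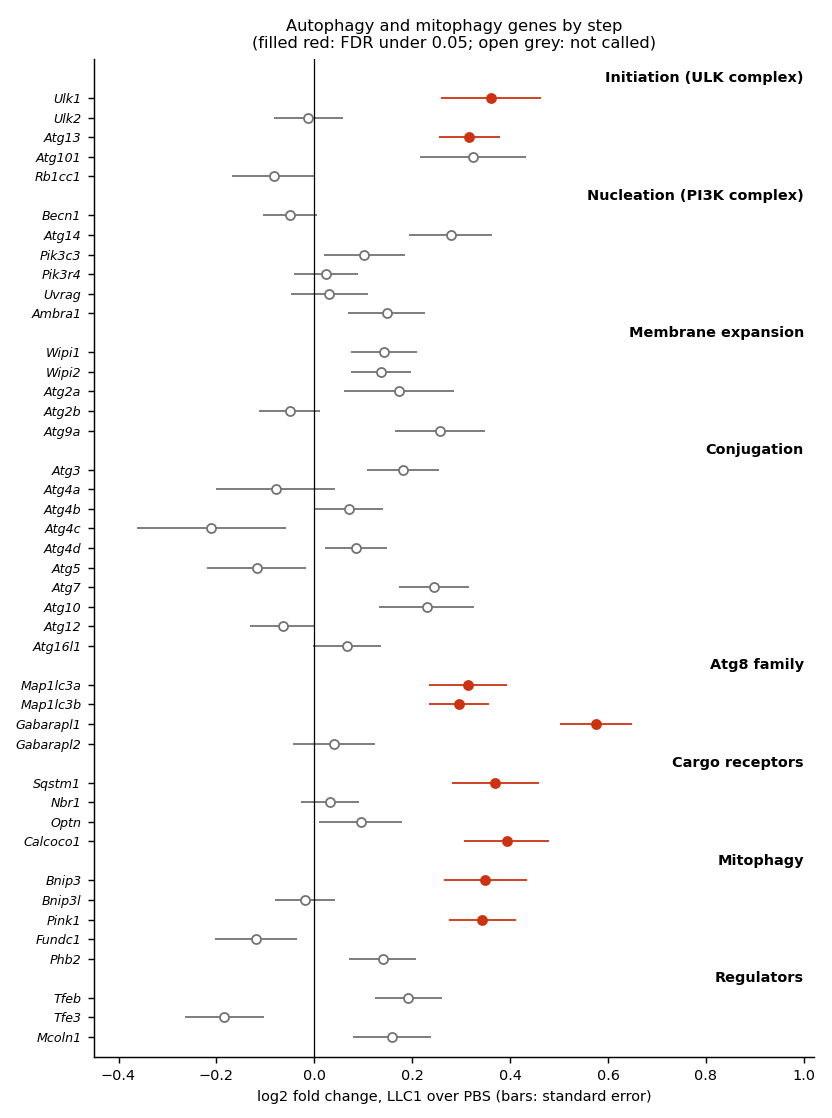
log2 fold changes (LLC1 over PBS, x axis) of 42 of the 43 members, with standard errors as bars, ordered by step of the pathway on the y axis. The filled points (FDR under 0.05) are 9 of the 10 called members, all to the right of 0, in initiation, the Atg8 family, cargo receptors and mitophagy, and with libraries scaled to cardiomyocyte markers Gabarapl1 alone of the 10 was called higher.

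**Figure D2:**
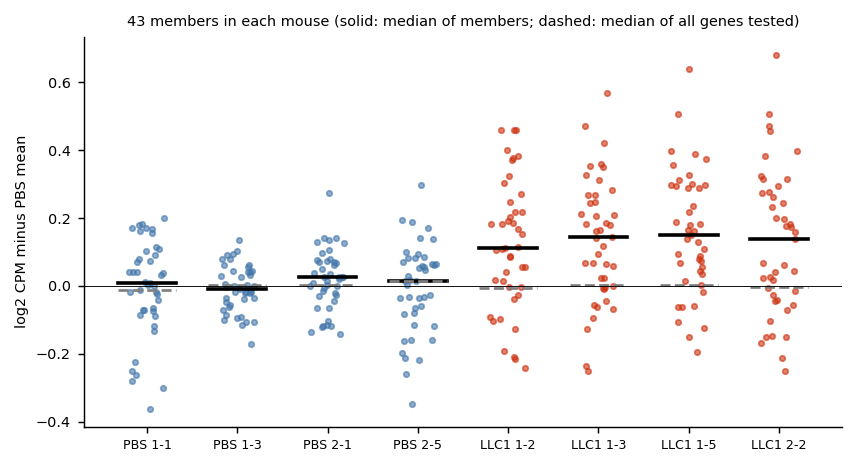
Each point is 1 of the 43 members in 1 mouse, as its log2 CPM minus the mean of the 4 PBS-injected mice (y axis), with mice along the x axis. Solid lines are medians of the members, between 0.11 and 0.15 in the tumor-bearing mice, and dashed lines are medians of all genes tested, within 0.02 of 0 in every mouse.

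These directions are relative to the scaling. Without PBS 1-1 the median was 0.11 and 12 members were called, the same 10 together with Atg14 (log2 fold change 0.31, FDR = 0.0366) and Tfeb (0.23, FDR = 0.0413), where 5.56% of all genes tested were called higher. Without PBS 1-3, 2 members were called, Atg13 and Gabarapl1, and 1.3% of all genes. Leaving out LLC1 1-2 or 2-2 left 6 calls each (2.02% and 2.16% of all genes). Leaving out LLC1 1-3, LLC1 1-5 or PBS 2-1 left 5 each (1.7%, 1.92% and 2.25% of all genes). Without PBS 2-5 there were 11 (4.99% of all genes). The count of members broadly followed the calls over all genes, though not in strict order. Scaled to total counts alone, 4 members were called higher (Map1lc3a, Gabarapl1, Bnip3 and Pink1), and the calls over all genes split into 225 higher and 793 lower instead of 663 and 743. Scaling to the summed cardiomyocyte markers, an alternative chosen after seeing that this sum was 1.122 times higher in the tumor-bearing mice, shifted the median of all genes to -0.18 and that of the members to -0.02. Under it 1 member was called higher, Gabarapl1, and 7 lower, Rb1cc1, Becn1, Atg2b, Atg12, Bnip3l, Fundc1 and Tfe3. A change of scaling moves all genes by about the same amount, so the gap of 0.15 between the median of the members and that of all genes was kept by construction. Split by the first number of the label code, whose meaning the labels do not give, the median difference was 0.13 among mice of code 1 (3 LLC1, 2 PBS) and 0.14 among mice of code 2, which hold a single tumor-bearing mouse (1 LLC1, 2 PBS). Neither subset was tested alone.

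**Figure D3:**
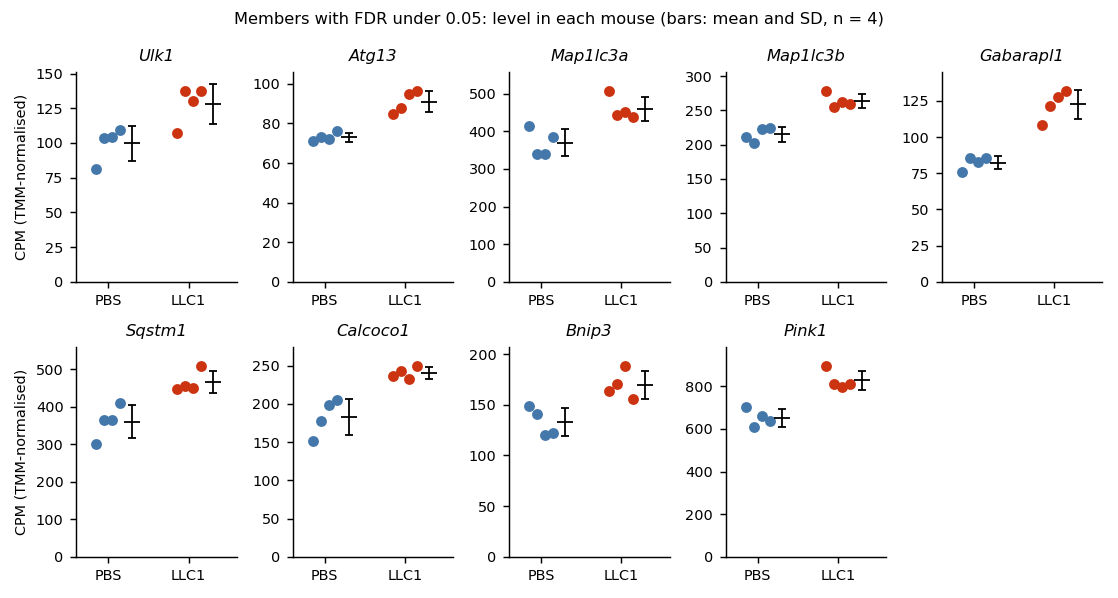
TMM-normalised CPM (y axis, from 0) of 9 of the 10 called members in each of the 8 mice, with the mean and SD (n = 4) of each group beside the points. In 8 of these 9 the groups do not overlap; in Ulk1, LLC1 1-2 lies at 107 CPM among the PBS-injected mice.

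In the initiation complex 2 of 5 members rose, where 4.12% of all genes tested were called higher. Both were among the 9 genes that the study had picked out from these same libraries. Ulk1 (chr5:110784488-110810097, mm10), the kinase that starts autophagy, measured 107, 137, 130.5 and 137 CPM in the tumor-bearing mice and 81.5, 103, 104.5 and 109 CPM in the PBS-injected mice. Mouse LLC1 1-2 lay inside the control range and the other 3 tumor-bearing mice above it, and PBS 1-1 was the lowest of all. Ulk1 had a log2 fold change of 0.36 (SE 0.10, FDR = 0.0490), from 99.7 ± 12.4 to 128 ± 14.4 CPM (SD, n = 4). The call was at the edge, with an exact permutation p of 0.0571. Without PBS 1-1 the log2 fold change was 0.28 (FDR = 0.0498). It was lost in edgeR without LLC1 1-3, 1-5 or 2-2 or without PBS 1-3 or 2-1 (FDR between 0.0816 and 0.132). It was also lost with limma-voom, upper-quartile factors or at least 10 counts in every mouse (FDR between 0.05004 and 0.0556), and with total counts only (FDR = 0.173). Atg13 (chr2:91674618-91710576), the scaffold that binds the kinase, measured 85, 88, 94.7 and 96.4 CPM in the tumor-bearing mice and 71, 73.2, 72.1 and 76.2 CPM in the PBS-injected mice, so the lowest tumor-bearing mouse exceeded the highest control. Atg13 had a log2 fold change of 0.32 (SE 0.06, FDR = 0.0116), from 73.1 ± 2.26 to 91 ± 5.4 CPM (SD, n = 4), and it stayed called whichever mouse was left out. Of the rest, Atg101, the partner that stabilises Atg13, measured 15.4 ± 2.39 and 19.3 ± 1.23 CPM in PBS-injected and tumor-bearing mice (SD, n = 4), with a log2 fold change of 0.33 (SE 0.11, FDR = 0.0832), and it passed only without PBS 2-5 (0.44, FDR = 0.0157). The second kinase Ulk2 measured 94.2 ± 7.62 and 93.4 ± 4.18 CPM, a log2 fold change of -0.01 (SE 0.07, FDR = 0.939), and the large scaffold Rb1cc1 (FIP200) measured 81.2 ± 8.29 and 76.6 ± 6.17 CPM, -0.08 (SE 0.08, FDR = 0.573). As a share of the summed level per kilobase of the kinase pair, Ulk1 made up 58.3% to 62.7% in tumor-bearing mice and 48.6% to 59.9% in PBS-injected mice, so that these shares overlapped.

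None of the 6 nucleation genes passed the test, with 5 of 6 log2 fold changes above 0 and a median of 0.07. Becn1 (chr11:101285952-101302286), which encodes Beclin 1, the regulatory core of the lipid kinase complex, had the highest level per kilobase of the 6 in PBS-injected mice (8.67 CPM per kilobase). It measured 60.1, 60.9, 56.9 and 58.9 CPM in the tumor-bearing mice and 61.8, 60.7, 60.7 and 61.9 CPM in the PBS-injected mice, and LLC1 1-3 lay inside the narrow control range with the other 3 tumor-bearing mice below it. Becn1 had a log2 fold change of -0.05 (SE 0.06, FDR = 0.619), from 61.3 ± 0.649 to 59.2 ± 1.75 CPM (SD, n = 4). Cntd1 on the other strand covers 43.9% of the exon bases of Becn1, and as the use of strand in the counting is not given in the sources used here, reads of such pairs cannot be told apart. Atg14, the subunit that targets the complex to autophagy, did not overlap between groups, at 14.1 ± 1.13 and 17 ± 0.681 CPM in PBS-injected and tumor-bearing mice, and missed the threshold, with a log2 fold change of 0.28 (SE 0.08, FDR = 0.0615), except without PBS 1-1 and with gene length offsets. The catalytic subunit Pik3c3 (Vps34) had a log2 fold change of 0.10 (SE 0.08, FDR = 0.476), its partner Pik3r4 (Vps15) one of 0.02 (SE 0.07, FDR = 0.853), Uvrag of the alternative complex one of 0.03 (SE 0.08, FDR = 0.845) and the scaffold Ambra1 one of 0.15 (SE 0.08, FDR = 0.264). Of these, 4 turned negative under the scaling to cardiomyocyte markers (Pik3c3, Pik3r4, Uvrag and Ambra1).

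None of the 5 genes of membrane expansion passed the test. Wipi1 (chr11:109573331-109611967), a reader of the lipid mark, was the most abundant per kilobase (23.7 CPM per kilobase in PBS-injected mice). It measured 109, 118, 115 and 119.8 CPM in the tumor-bearing mice and 105, 103, 114 and 96.3 CPM in the PBS-injected mice, with LLC1 1-2 inside the control range. Wipi1 had a log2 fold change of 0.14 (SE 0.07, FDR = 0.205), from 104.5 ± 7.36 to 115 ± 4.97 CPM (SD, n = 4). Its relative Wipi2 (52.2 ± 2.77 and 57.4 ± 1.59 CPM in PBS-injected and tumor-bearing mice) and Atg9a (127 ± 17.1 and 152 ± 8.41 CPM), the scramblase whose vesicles seed the membrane, did not overlap between groups, with log2 fold changes of 0.14 (SE 0.06, FDR = 0.193) and 0.26 (SE 0.09, FDR = 0.105). Atg9a was called with the first code number as a covariate (0.31, FDR = 0.0381) and, like Wipi2, with gene length offsets. The lipid transfer genes gave 0.17 (SE 0.11, FDR = 0.367) for Atg2a and -0.05 (SE 0.06, FDR = 0.649) for Atg2b. An annotated transcript on the same strand, Gm29253, covers 31.8% of the exon bases of Atg9a, and it was counted at up to 2343 in a mouse, so that the counting could have split their reads.

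The 10 conjugation genes, which work like a ubiquitin cascade, held 0 calls, with 6 log2 fold changes above 0 and a median of 0.07. The most abundant per kilobase was Atg4d (chr9:21265299-21274368, 26.3 CPM per kilobase in PBS-injected mice), a protease that trims Atg8 family proteins and frees them from membranes. Atg4d measured 74.2, 72.4, 72 and 64.8 CPM in the tumor-bearing mice and 68.6, 66.4, 63.9 and 68.2 CPM in the PBS-injected mice, and the groups overlapped. It had a log2 fold change of 0.09 (SE 0.06, FDR = 0.43), from 66.8 ± 2.17 to 70.8 ± 4.13 CPM (SD, n = 4), and Kri1 on the other strand covers 19.3% of its exon bases. Atg7, the E1-like enzyme that activates both conjugation arms, came nearest to the threshold, at 20.1 ± 0.871 and 23.9 ± 0.864 CPM without overlap and a log2 fold change of 0.24 (SE 0.07, FDR = 0.0545). The E2-like enzymes had unadjusted p under 0.05 and were not called, with log2 fold changes of 0.18 (SE 0.07, FDR = 0.149) for Atg3, whose groups did not overlap, and 0.23 (SE 0.10, FDR = 0.161) for Atg10, whose groups did. Atg12, Atg5 and Atg16l1, which together form the E3-like complex, gave -0.06 (SE 0.07, FDR = 0.584), -0.12 (SE 0.10, FDR = 0.495) and 0.07 (SE 0.07, FDR = 0.585). Among the other proteases, Atg4b gave 0.07 (SE 0.07, FDR = 0.556), Atg4a -0.08 (SE 0.12, FDR = 0.728) and the scarce Atg4c, at 64 to 103 counts in a mouse, -0.21 (SE 0.15, FDR = 0.419), the lowest of all members. Within the Atg4 family, Atg4d held 73.5% to 76.3% of the level per kilobase in tumor-bearing and 70.7% to 75.4% in PBS-injected mice, and no Atg4 gene changed its share without overlap. The upper ends of the intervals for Atg5, Atg12 and Becn1 (nominal 95% intervals from the SE, on the log2 scale) were 0.08, 0.07 and 0.06.

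Of the 5 Atg8 family genes, whose products coat the autophagosome, 4 rose, where 4.12% of all genes tested were called higher. All 4 were among the 9 genes that the study had picked out from these same libraries, so their calls are not independent evidence. Map1lc3a (chr2:155276297-155278073) was the most abundant, at 313.5 CPM per kilobase in PBS-injected mice, above every other member. It measured 507, 444.5, 452 and 437 CPM in the tumor-bearing mice and 415, 341, 339 and 386 CPM in the PBS-injected mice, with every tumor-bearing mouse above every control. Map1lc3a had a log2 fold change of 0.31 (SE 0.08, FDR = 0.0329), from 370.3 ± 37 to 460.3 ± 31.9 CPM (SD, n = 4). The call was lost without any of the 4 tumor-bearing mice, PBS 1-3 or PBS 2-1 (FDR between 0.0539 and 0.113), and without PBS 1-1 the log2 fold change was 0.37. Map1lc3b (chr8:121590361-121598760), the isoform most used to follow autophagosomes, measured 278, 255, 263 and 259.9 CPM in the tumor-bearing mice and 211, 202, 223 and 225 CPM in the PBS-injected mice, and the groups were well apart. Map1lc3b had a log2 fold change of 0.30 (SE 0.06, FDR = 0.0136), from 215 ± 10.7 to 264 ± 10.0 CPM (SD, n = 4). The call was lost without PBS 1-3 (FDR = 0.0611) and with total counts (FDR = 0.0677) or cardiomyocyte markers (FDR = 0.152) as the scale.

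Gabarapl1 (chr6:129533200-129542331), of the other branch of the family, measured 109, 122, 128 and 132 CPM in the tumor-bearing mice and 75.7, 85.3, 82.6 and 85.3 CPM in the PBS-injected mice. Every tumor-bearing mouse was clear of the highest control. Gabarapl1 had a log2 fold change of 0.58 (SE 0.07, FDR = 0.00138), from 82.2 ± 4.55 to 123 ± 10.2 CPM (SD, n = 4), the highest of the 43, a 1.49-fold rise that was called whichever mouse was left out, under 9 of 9 other settings that kept all mice and under the scaling to cardiomyocyte markers (0.41, FDR = 0.00471). An annotated transcript on the other strand, 1700101I11Rik, covers 28.3% of its exon bases and reached 110 counts in a mouse. Gabarapl2 (GATE-16) measured 47.4 ± 4.9 and 48.6 ± 3.55 CPM in PBS-injected and tumor-bearing mice, a log2 fold change of 0.04 (SE 0.08, FDR = 0.807), which was negative with total counts or cardiomyocyte markers as the scale.

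The shares of 4 of the 5 genes in the Atg8 family's total overlapped between groups. Map1lc3a supplied 63.0% to 65.9% of the family's level per kilobase in tumor-bearing mice and 62.4% to 67.4% in PBS-injected mice, and the share of Gabarapl1 was 9.44% to 12.7% against 8.21% to 10.5%. Gabarapl2 alone had shares that did not overlap, 3.31% to 3.54% against 3.63% to 4.52%. A share is a ratio within a mouse and is the same under every scaling of the libraries.

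Among the 4 cargo receptors 2 rose, where 4.12% of all genes tested were called higher. Sqstm1 was among the genes that the study had picked out and Calcoco1 was not. Sqstm1 (chr11:50199366-50210827), which encodes p62, the receptor that binds ubiquitinated cargo and LC3, measured 448, 456, 449 and 508 CPM in the tumor-bearing mice and 301, 365.5, 364.5 and 409 CPM in the PBS-injected mice. PBS 1-1 was lowest and LLC1 2-2 highest, and every tumor-bearing mouse lay above every control. Sqstm1 had a log2 fold change of 0.37 (SE 0.09, FDR = 0.0254), from 360.0 ± 44.6 to 465 ± 29.1 CPM (SD, n = 4), and 0.29 without PBS 1-1 (FDR = 0.0173). The call was lost without any of the 4 tumor-bearing mice, PBS 1-3 or PBS 2-1 (FDR between 0.05003 and 0.0782). Mrnip on the other strand covers 17.3% of its exon bases. Calcoco1 (chr15:102706779-102722178), a receptor for fragments of the endoplasmic reticulum and Golgi, measured 236, 243, 233 and 249.7 CPM in the tumor-bearing mice and 151.5, 177, 198 and 205 CPM in the PBS-injected mice. The tumor-bearing mice were close to each other, the controls ranged more widely, and the groups did not overlap. Calcoco1 had a log2 fold change of 0.39 (SE 0.09, FDR = 0.0181), from 183 ± 24 to 240.5 ± 7.5 CPM (SD, n = 4), and 0.31 without PBS 1-1 (FDR = 0.00912), with the call lost without LLC1 1-3 or 2-2 or PBS 1-3 (FDR between 0.0560 and 0.0724). Nbr1, a receptor that works beside p62, measured 167 ± 8.37 and 170.3 ± 4.93 CPM in PBS-injected and tumor-bearing mice, with a log2 fold change of 0.03 (SE 0.06, FDR = 0.782). Optn, the receptor optineurin of the Pink1 pathway, measured 116 ± 13.6 and 124 ± 6.09 CPM, 0.09 (SE 0.08, FDR = 0.517). Both turned negative under the scaling to cardiomyocyte markers.

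Among the 5 mitophagy genes 2 rose, 1 from the receptor route and 1 from the ubiquitin route, where 4.12% of all genes were called higher. The first, Bnip3, was among the genes that the study had picked out, and the second, Pink1, was not. Bnip3 (chr7:138890836-138909519), an outer-membrane receptor that binds LC3 directly and is known to be induced by low oxygen, measured 163, 170.0, 188 and 155 CPM in the tumor-bearing mice and 149, 141, 119.9 and 122 CPM in the PBS-injected mice. All tumor-bearing mice lay above all controls, with PBS 1-1 the highest control. Bnip3 had a log2 fold change of 0.35 (SE 0.09, FDR = 0.0278), from 133 ± 14.1 to 169 ± 14 CPM (SD, n = 4), and 0.41 without PBS 1-1 (FDR = 0.00686). The call was lost without LLC1 1-2, 1-3 or 1-5 or PBS 1-3 or 2-1 (FDR between 0.0552 and 0.0855). Processed copies of Bnip3 exist, of which Gm16439 shares 98.9% identity over 564 bases and was counted at most 69 times in a mouse. The longest match, AC160336.1 (98.3% over 858 bases), and those to Gm9419 and Gm6532 have no entry in the deposited counts by gene ID. The antisense transcript Gm45507, also without an entry, covers 22.3% of the exon bases of Bnip3. Its paralog Bnip3l (NIX) measured 55.7 ± 1.85 and 55 ± 2.65 CPM in PBS-injected and tumor-bearing mice, with a log2 fold change of -0.02 (SE 0.06, FDR = 0.878). Bnip3 held 83.2% to 84.7% of the pair's level per kilobase in tumor-bearing mice and 77.8% to 82.1% in PBS-injected mice, without overlap.

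**Figure D4:**
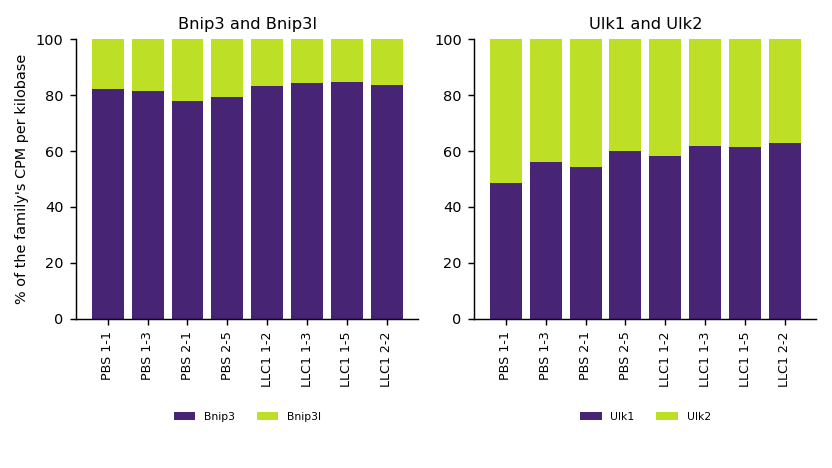
Bars show, for each mouse (x axis), the percentage (y axis, 0 to 100) of the summed CPM per kilobase of Bnip3 with Bnip3l and of Ulk1 with Ulk2 that each gene held. Bnip3 is at 83.2% to 84.7% in tumor-bearing mice and 77.8% to 82.1% in PBS-injected mice, with Bnip3l as the rest, and the shares of Ulk1 and Ulk2 overlap.

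Pink1 (chr4:138313409-138326307), the kinase that accumulates on damaged mitochondria, was the most abundant mitophagy gene (244 CPM per kilobase in PBS-injected mice). It measured 896, 809.6, 795 and 810.1 CPM in the tumor-bearing mice and 705, 608, 661 and 636 CPM in the PBS-injected mice. LLC1 1-2 was the highest and the groups did not overlap. Pink1 had a log2 fold change of 0.34 (SE 0.07, FDR = 0.0121), from 652.5 ± 41.2 to 828 ± 45.8 CPM (SD, n = 4), and 0.38 without PBS 1-1 (FDR = 0.00295). The call was lost without PBS 1-3 (FDR = 0.0523) and with cardiomyocyte markers as the scale (FDR = 0.0859). The receptor Fundc1 gave -0.12 (SE 0.08, FDR = 0.399) and Phb2, an inner-membrane prohibitin that binds LC3 once the outer membrane has ruptured, 0.14 (SE 0.07, FDR = 0.224).

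The 3 regulators act at the lysosome and in the nucleus, and none passed. Mcoln1 (chr8:3500457-3515232), the lysosomal calcium channel upstream of Tfeb, was the most abundant per kilobase (7.7 CPM per kilobase in PBS-injected mice). It measured 25.3, 28.4, 28.4 and 30.0 CPM in the tumor-bearing mice and 22.8, 24.7, 26.3 and 26.6 CPM in the PBS-injected mice, with LLC1 1-2 inside the control range. Mcoln1 had a log2 fold change of 0.16 (SE 0.08, FDR = 0.234), from 25.1 ± 1.73 to 28.1 ± 1.97 CPM (SD, n = 4). Tfeb and Tfe3, related factors that drive lysosomal and autophagy genes, lay on opposite sides of 0. Tfeb measured 31 ± 2.05 and 35.4 ± 0.639 CPM in PBS-injected and tumor-bearing mice without overlap, 0.19 (SE 0.07, FDR = 0.103), and Tfe3 18.8 ± 1.37 and 16.6 ± 0.585 CPM without overlap, -0.18 (SE 0.08, FDR = 0.176). Of these, Tfeb was called without PBS 1-1 and with gene length offsets, and Tfe3 was called lower with the scaling to cardiomyocyte markers (-0.35, FDR = 0.0154).

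The called members had a higher median level than the others, with overlapping ranges. Their level in PBS-injected mice had a median of 52.6 CPM per kilobase (16.7 to 313.5), against 7.20 CPM per kilobase (1.51 to 50.6) for the 33 members not called. Counts per mouse ran from 827 to 16101 in the called members and from 64 to 3851 in the others, which also overlap. Of the 33 not called, 22 had log2 fold changes above 0 and 11 below, between -0.21 and 0.33, and 9 had an unadjusted p under 0.05 in edgeR, against 2697 of the 14705 genes not called over the whole table. With gene length offsets Atg7, Atg9a, Atg14, Wipi2 and Tfeb were also called and Map1lc3a was not, 14 members in all, while the calls over all genes rose from 4.12% to 6.05% higher. Nearest to the threshold on either side were Ulk1 (FDR = 0.0490) and Atg7 (FDR = 0.0545). In the exact permutation test of each gene over the 70 arrangements of the mice, 9 of the 10 called members and 7 of the 33 not called reached 0.0286, the smallest p that 4 against 4 mice can give. Groups that do not overlap give this p, as 8.89% of all genes tested did above and 8.27% below the controls, called genes included. Of the 7 members not called that reached it, Tfe3 alone lay below the controls and the rest above. The matching share over the genes not called was not computed.

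The sequence upstream of the start was compared because many genes of this pathway are known to be activated through short motifs. Tfeb and its relatives bind the E-box CACGTG, which reads the same on both strands. An extended form, TCACGTG, contains the E-box and is preferred by Tfeb. FoxO factors bind GTAAACA, and every motif was searched on both strands. RefSeq promoters of GRCm38.p6, from 250 bases before to 50 after the start, were matched for 36 of the 43 members. The E-box was present in 6 of the 36 (16.7%), against 7.24% of 27025 promoters of all genes and 10.1% of 10464 promoters of genes tested. It was present in 1 of the 9 called members matched, Bnip3, and in 5 of the 27 not called, Atg3, Atg5, Atg7, Atg14 and Mcoln1. A single start was used per gene. The window of Atg7 (chr6:114670846-114671145, plus strand) lies inside the gene, whose span in the count table begins at chr6:114643097. The extended form was in 4 of the 36, 0 of them called, against 3.84% of all promoters and 5.92% of promoters of genes tested. GTAAACA was in 0 of 36, against 3.55% and 2.45%. The 150 bases before the start are given for Gabarapl1, the member with the highest fold change, for Bnip3, the called member with an E-box, and for Atg3 and Mcoln1, which hold 2 E-boxes each and were not called, from 5′ to 3′ on the strand of the gene with CACGTG in capitals. They lie at chr6:129533042-129533191, plus strand (Gabarapl1), chr7:138909507-138909656, minus strand (Bnip3), chr16:45158679-45158828, plus strand (Atg3) and chr8:3500369-3500518, plus strand (Mcoln1).
Gabarapl1: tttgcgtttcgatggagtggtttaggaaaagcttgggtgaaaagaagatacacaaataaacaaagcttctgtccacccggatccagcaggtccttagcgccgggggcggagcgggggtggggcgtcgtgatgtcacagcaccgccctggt
Bnip3: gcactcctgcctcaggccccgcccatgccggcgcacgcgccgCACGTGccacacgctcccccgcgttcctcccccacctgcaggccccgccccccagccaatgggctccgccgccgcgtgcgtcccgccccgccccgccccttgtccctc
Atg3: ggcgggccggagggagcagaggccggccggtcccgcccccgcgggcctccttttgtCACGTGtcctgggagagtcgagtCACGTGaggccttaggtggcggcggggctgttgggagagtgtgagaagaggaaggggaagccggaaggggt
Mcoln1: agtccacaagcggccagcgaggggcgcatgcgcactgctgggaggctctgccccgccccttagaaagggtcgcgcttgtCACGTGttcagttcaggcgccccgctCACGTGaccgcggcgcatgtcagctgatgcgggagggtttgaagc
The E-box of Bnip3 starts 108 bases before the start, those of Atg3 94 and 71 bases before it and those of Mcoln1 71 and 45 bases before it. A match describes these letters in these windows only.

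Of 75 further autophagy genes outside the 43, all found in the table, 73 were tested, 6 were higher and 0 lower, where 4.12% of all genes tested were higher (DESeq2 called 10 of the list higher and 0 lower). Their median log2 fold change was 0.05, and 18 of the 73 had an unadjusted p under 0.05 in edgeR, a share close to the 4103 of 16111 over all genes tested. Of those 18, 2 were in the lower direction, Hspb8 at -0.20 (FDR = 0.136) and Nipsnap1, named here after their values were seen. By group, 2 of 17 regulators, 1 of 12 fusion genes, 1 of 7 expansion partners, 1 of 16 receptors and 1 of 14 mitophagy genes tested rose, and 0 of 5 initiation and nucleation partners and 0 of 2 conjugation partners. Flcn, folliculin, which with its partners controls the cytoplasmic retention of Tfeb and Tfe3 through the Rag GTPases, measured 108.5, 125, 132 and 115 CPM in the tumor-bearing mice and 77.4, 81.8, 75.6 and 82.5 CPM in the PBS-injected mice. Every tumor-bearing mouse was clear of the highest control. Flcn had a log2 fold change of 0.60 (SE 0.07, FDR = 0.00103), from 79.3 ± 3.34 to 120.3 ± 10.3 CPM (SD, n = 4), above that of every member, and stayed called whichever mouse was left out. Its partners were not called, at 0.05 (SE 0.10, FDR = 0.782) for Fnip1 and 0.15 (SE 0.22, FDR = 0.709) for Fnip2 on the same scale. Foxo3, a transcription factor known to drive autophagy genes in muscle, measured 126, 134.5, 135 and 157 CPM in the tumor-bearing mice and 93.3, 91.2, 97.3 and 111 CPM in the PBS-injected mice, without overlap. Foxo3 had a log2 fold change of 0.49 (SE 0.08, FDR = 0.00611), from 98.1 ± 8.78 to 138 ± 13.2 CPM (SD, n = 4), also called whichever mouse was left out, while Foxo1 gave 0.04 (SE 0.09, FDR = 0.846).

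**Figure D5:**
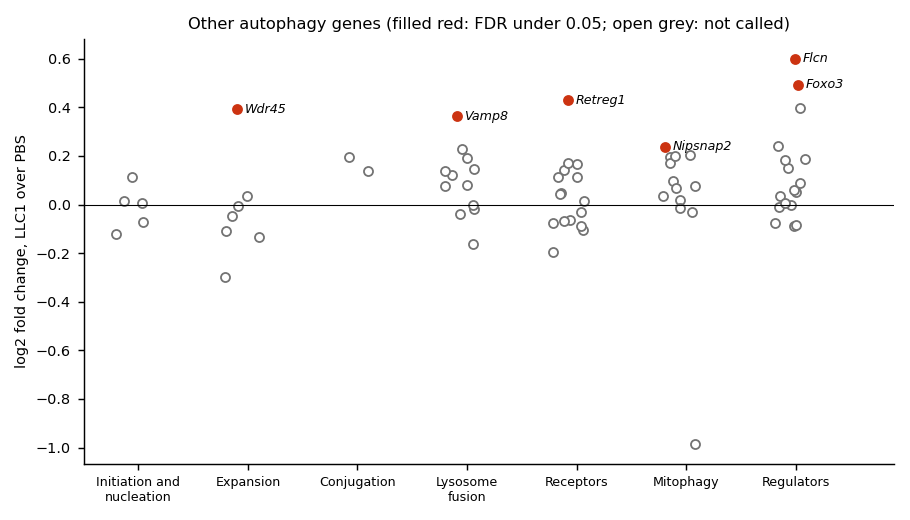
Fold changes on the log2 scale (y axis, LLC1 over PBS) of 72 of the 73 other autophagy genes tested, grouped by role on the x axis. The 6 filled points (FDR under 0.05) are Flcn, Foxo3, Retreg1, Wdr45, Vamp8 and Nipsnap2, between 0.24 and 0.60, and the lowest point is Nipsnap1 at -0.99, which was not called.

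Retreg1, a receptor for fragments of the endoplasmic reticulum listed under its older symbol Fam134b, measured 295, 353, 350.5 and 298 CPM in the tumor-bearing mice and 278, 231, 253 and 199.9 CPM in the PBS-injected mice, without overlap. Retreg1 had a log2 fold change of 0.43 (SE 0.10, FDR = 0.0234), from 240.5 ± 33.1 to 324 ± 31.9 CPM (SD, n = 4). Its call was lost without LLC1 1-3, LLC1 1-5 or PBS 1-3 (FDR between 0.0712 and 0.0789), and its relatives Retreg2 and Retreg3 gave 0.04 (SE 0.08, FDR = 0.786) and 0.14 (SE 0.06, FDR = 0.156). Wdr45, a relative of Wipi1 and Wipi2, measured 43.2, 39.4, 42.3 and 43.8 CPM in the tumor-bearing mice and 27.8, 30.1, 33.5 and 36.7 CPM in the PBS-injected mice, without overlap. Wdr45 had a log2 fold change of 0.39 (SE 0.09, FDR = 0.018), from 32 ± 3.9 to 42.2 ± 1.97 CPM (SD, n = 4). The call was lost without LLC1 1-2, 1-5 or 2-2 or PBS 1-3 (FDR between 0.0504 and 0.0736). It held under 8 of 9 other settings that kept all mice. Gm45208 on the same strand covers 24.7% of the exon bases of Wdr45 and has no entry in the deposited counts by gene ID. Vamp8, the lysosomal partner of syntaxin 17 in fusion, measured 41, 34.4, 34.3 and 33.4 CPM in the tumor-bearing mice and 29.5, 26.8, 27.4 and 27.5 CPM in the PBS-injected mice, without overlap. Vamp8 had a log2 fold change of 0.36 (SE 0.08, FDR = 0.0177), from 27.8 ± 1.18 to 35.8 ± 3.48 CPM (SD, n = 4), lost without PBS 1-3 (FDR = 0.067), while Stx17 gave -0.02 (SE 0.07, FDR = 0.907) and Snap29 -0.16 (SE 0.11, FDR = 0.389). Nipsnap2, a mitochondrial protein that recruits autophagy receptors, named here after its values were seen and listed as Gbas, gave 0.24 (SE 0.06, FDR = 0.0341). It was called with PBS 1-1 left out but lost without any other mouse (FDR between 0.0571 and 0.113), and held under 8 of 9 other settings that kept all mice. Its relative Nipsnap1 was at 0.219 to 1.26 CPM and gave -0.99 (SE 0.36, FDR = 0.108). Calcoco2 was listed at 0 counts in every mouse and Tfec at 8 counts or fewer, and neither was tested. The kinase Mtor, the main brake on initiation, measured 99.8 ± 7.52 and 104 ± 5.09 CPM in PBS-injected and tumor-bearing mice, 0.06 (SE 0.07, FDR = 0.631), its partner Rptor gave 0.18 (SE 0.06, FDR = 0.0818), and Tsc2, an inhibitor of the same kinase, 0.24 (SE 0.08, FDR = 0.0785).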

How the data were processed

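Ventricular mRNA was prepared with the TruSeq RNA kit V2 and sequenced on an Illumina HiSeq 4000. The authors deposited whole-number read counts per gene for each mouse, without normalization, on mouse build mm10. The submitters' processing notes list CASAVA, STAR and featureCounts, and their versions, the annotation and the strand setting are not given in the sources used here. Groups were taken from the stated treatment, and mice were compared as unpaired because the 2 groups share only 1 label code.

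Counts were fitted with edgeR 4.0.16 in R 4.3.3 (filterByExpr, TMM factors, quasi-likelihood F-test, Benjamini-Hochberg adjustment over the 16111 genes tested). An FDR under 0.05 was a call. The SE is the absolute log2 fold change divided by the square root of F. CPM values are counts per 1000000 counts after TMM scaling, and levels per kilobase use the gene length in the deposited table. Exact permutation tests were 2-sided and used log2 CPM (prior count 2). P-values reflect the spread among 4 separate mice per group. Steps were tested on simulated data.

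The alternatives were DESeq2 1.42.0, limma-voom (limma 3.58.1), upper-quartile factors, total counts, no filter, at least 10 counts in every mouse, robust empirical Bayes, the first code number as a covariate, gene length offsets (loess span 0.3), each mouse left out and, added after seeing the data, scaling to cardiomyocyte markers. The members, the lists of further genes and the markers were chosen with earlier results of these data known. Values in every mouse are given for called members, for the most abundant member of each step, and for up to 5 called further genes in each direction. Shared exons and copies (BLAST 2.17.0, at least 95% identity over 150 bases) were found in GENCODE M21. The values of some genes of the lists are not reported here, and counts over a list include them. Protein data of the study were not analysed here.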

Additional observations from a re-analysis of the deposited data

Results flagged for a closer look

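In 86 groups of 4 mice (43 members in each group), 2 held 1 mouse far from the other 3 by Dixon's test, where chance would mark about 1 in 20 groups. Sqstm1 was at 508.4 CPM in LLC1 2-2, and the other 3 tumor-bearing mice lay between 447.7 and 456.0 CPM. Without that mouse the log2 fold change of Sqstm1 was 0.32 (edgeR FDR = 0.0782). Pink1 was at 895.7 CPM in LLC1 1-2, and the other 3 tumor-bearing mice lay between 795.4 and 810.1 CPM. Without LLC1 1-2 it was still called. In both genes all 4 tumor-bearing mice lay above all 4 PBS-injected mice.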

How the results depend on the processing

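The number of members called higher was between 9 and 14 under every setting that kept all mice except scaling to total counts, where it was 4, and scaling to cardiomyocyte markers, and it ranged from 2 to 12 with 1 mouse left out. The share of all genes called higher was 2.83% to 6.05% in the former settings, 1.4% with total counts and 1.3% to 5.56% with 1 mouse left out. The median of the members ranged from 0.1138 to 0.1533 with 1 mouse left out, was 0.192 with gene length offsets and 0.08607 with total counts. The further autophagy genes called higher numbered 10 with DESeq2 (3.37% of all genes), 11 with gene length offsets (6.05%) and 4 with total counts (1.4%). They numbered 2 to 7 with 1 mouse left out, and those called lower 0 to 1. With scaling to cardiomyocyte markers, added after seeing the data, 1 member was higher and 7 were lower, 2 further genes were higher and 11 lower, and the median was -0.02493, beside a median of all genes of -0.1758. Of all 16111 genes, 182 were then higher and 3370 lower.

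The signs that reversed all belonged to members not called. With scaling to cardiomyocyte markers the log2 fold change became -0.06457 for Pik3c3, -0.1415 for Pik3r4, -0.1339 for Uvrag, -0.0151 for Ambra1, -0.02231 for Wipi1, -0.02993 for Wipi2, -0.09527 for Atg4b, -0.08095 for Atg4d, -0.1007 for Atg16l1, -0.1254 for Gabarapl2, -0.1343 for Nbr1, -0.07139 for Optn, -0.02493 for Phb2 and -0.005648 for Mcoln1. With total counts it was -0.03219 for Pik3r4, -0.02353 for Uvrag, -0.01126 for Gabarapl2 and -0.02406 for Nbr1. With gene length offsets it was 0.05962 for Ulk2, 0.003187 for Rb1cc1, 0.03378 for Becn1, 0.03964 for Atg2b and 0.0262 for Bnip3l, and with no filter 0.003522 for Ulk2. With 1 mouse left out it ranged from -0.06788 to 0.02076 for Ulk2, -0.01574 to 0.103 for Gabarapl2, -0.04416 to 0.003667 for Bnip3l, -0.002882 to 0.04412 for Pik3r4 and -0.008623 to 0.06307 for Uvrag.

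The single-gene calls under all alternatives came to 31 losses and 3 gains with 1 mouse left out, and 19 losses and 13 gains, in either direction, with another setting. No paired analysis was possible because the groups share fewer than 2 label codes. With 4 mice per group no exact p can fall below 0.0286. The cause of the changes was not tested. A change of scaling moves all genes by about the same amount, so it cannot test a uniform shift. Antisense and copied sequence limit Becn1, Atg4d, Gabarapl1, Sqstm1, Bnip3 and Atg9a, and Bnip3l, Atg4a and Gabarapl2 also have near-identical copies. Only transcripts were measured, which do not give the rate at which autophagosomes form or are cleared.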

Other observations

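Summed by step, the levels of the Atg8 family genes were 1029 to 1134 CPM in tumor-bearing mice and 819 to 897 CPM in PBS-injected mice. The cargo receptors summed to 981 to 1049 CPM against 730.1 to 869.9 CPM, and the mitophagy genes to 1232 to 1364 CPM against 1006 to 1128 CPM. The regulators summed to 77.3 to 82.1 CPM against 73.8 to 76.9 CPM. In these 4 steps the groups did not overlap, at ratios of group means of 1.24, 1.21, 1.22 and 1.07. A sum follows its most abundant genes: Pink1 went from 652.5 to 828 CPM on average and so made up most of the mitophagy difference, while Bnip3l and Fundc1 were slightly lower without a call. Among the regulators the groups were separated by less than 1 CPM, and Tfe3 was lower without a call. The initiation genes (372 to 423 against 358 to 376 CPM), the nucleation genes (188 to 197 against 180.2 to 191.0 CPM), the membrane expansion genes (411 to 457 against 345 to 413 CPM) and the conjugation genes (256 to 286 against 254.5 to 272 CPM) overlapped, with or without PBS 1-1. These are sums of the same libraries as above, on the TMM scale, and carry no test. The 8 cardiomyocyte markers summed to a ratio of 1.122 between the same group means, and the part of that difference in the sums was not tested.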
